A study of Mus musculus with 19 samples.

Results

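The embryonic day 13.5 neocortex of embryos that had lost *Ino80* and *Trp53* together was compared with the neocortex of embryos that had lost *Ino80* alone. The samples were 12 of the 19 embryos sequenced, chosen by their genotype labels alone, and comprised 7 dKO-E embryos and 5 cKO-E embryos. The cKO-E embryos carried Emx1 Cre/+ and Ino80 fl/fl, the dKO-E embryos carried Trp53 fl/fl as well, and both were on a mixed C57BL/6 and 129 background. All 12 therefore shared the Cre allele and the conditional loss of *Ino80*, and differed by design in *Trp53*. The Cre is expressed from the *Emx1* locus in cortical progenitors and their descendants, so interneurons that enter from the ventral forebrain, microglia and blood vessel cells keep unrecombined alleles. Another 7 embryos, labelled ctrl and given no fuller genotype in the labels, supply a reference level where one is stated. Each library was made from 1 embryo by Click-seq, in which cDNA synthesis stops at azido-nucleotides and a click-ligated adaptor carries a molecular tag, and the deposited values are whole counts of deduplicated reads per gene.

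p53, encoded by *Trp53*, is a transcription factor that is held at low levels by ubiquitin ligases such as MDM2 and accumulates after DNA breaks. It binds paired copies of a short palindromic element and raises the transcription of genes for cell-cycle arrest, apoptosis, DNA repair and its own inhibitors. INO80 is the ATPase of a chromatin remodeler that slides nucleosomes and acts in transcription, replication and repair. In the embryonic cortex, p53 is known above all for the death of neural progenitor cells whose genome has been damaged.

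The element that p53 reads is shown first, in promoters of genes whose values follow. Each window runs from 250 bases before to 50 bases after a start of the gene in RefSeq on GRCm38.p6 and is written along the gene's strand. Only windows with a match were eligible, and for a gene with several starts the window with the most matches is shown. Capitals mark exact matches to the p53 decamer consensus, a palindrome of 10 bases whose single search covers both strands. *Cdkn1a* lies at chr17:29090729-29091028 on the plus strand, *Ccng1* at chr11:40755237-40755536 on the minus strand, *Aen* at chr7:78895677-78895976 on the plus strand and *Inka2* at chr3:105705208-105705507 on the plus strand.
Cdkn1a: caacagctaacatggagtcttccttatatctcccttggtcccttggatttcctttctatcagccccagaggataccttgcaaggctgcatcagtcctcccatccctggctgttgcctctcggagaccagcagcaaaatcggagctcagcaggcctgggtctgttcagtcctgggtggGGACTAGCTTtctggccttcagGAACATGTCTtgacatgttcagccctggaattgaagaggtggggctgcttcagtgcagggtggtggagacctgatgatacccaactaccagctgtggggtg
Ccng1: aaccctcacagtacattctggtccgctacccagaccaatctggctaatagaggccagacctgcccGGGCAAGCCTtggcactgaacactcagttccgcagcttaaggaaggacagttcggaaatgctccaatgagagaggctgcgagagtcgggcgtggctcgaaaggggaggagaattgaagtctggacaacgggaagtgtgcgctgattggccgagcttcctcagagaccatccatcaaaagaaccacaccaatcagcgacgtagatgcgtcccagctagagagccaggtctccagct
Aen: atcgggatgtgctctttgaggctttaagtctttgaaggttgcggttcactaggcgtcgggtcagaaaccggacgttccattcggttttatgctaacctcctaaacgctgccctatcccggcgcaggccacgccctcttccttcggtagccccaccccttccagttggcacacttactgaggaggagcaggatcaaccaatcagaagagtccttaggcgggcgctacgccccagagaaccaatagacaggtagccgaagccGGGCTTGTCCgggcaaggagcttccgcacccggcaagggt
Inka2: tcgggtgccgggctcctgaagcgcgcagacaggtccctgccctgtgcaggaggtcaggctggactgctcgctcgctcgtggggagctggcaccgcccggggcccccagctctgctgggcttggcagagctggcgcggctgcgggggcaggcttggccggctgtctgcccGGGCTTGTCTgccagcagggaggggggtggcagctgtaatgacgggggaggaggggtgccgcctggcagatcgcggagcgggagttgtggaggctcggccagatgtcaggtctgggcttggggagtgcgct
The *Cdkn1a* window holds 2 decamers no more than 13 bases apart, the arrangement of a full response element, and the other windows hold 1 each. A decamer was found in 8.36% of all 32851 windows. Counted by gene, with a match in any of its windows, it was found in 9.55% of all 27025 genes with a window. The share was 8.03% of the 9061 tested genes with a window and 30.2% of the 63 such genes on the p53 target lists. Among the 26 of these listed genes that fell it was 34.6%. Of genes with a window, 10.1% of the 803 lower in dKO-E and 8.07% of the 508 higher in dKO-E held a decamer. A match describes letters in a short window and is not a bound site.

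The libraries held 820915 to 8095810 counts on genes (median 2888900). The principal component that held 29.2% of the variance separated every cKO-E embryo (-34.0 to -13.6) from every dKO-E embryo (9.91 to 25.3). On the next component, with 13.8%, dKO-E embryos A (26.8) and G (-35.6) stood apart, and the share of counts on mitochondrial genes was 0.332% in dKO-E A and 0.638% in dKO-E E against 1.02% to 1.29% in the other 10 libraries. The dKO-E embryos came from 2 litters and the cKO-E embryos from 5 others, so litter and genotype cannot be told apart without the ctrl embryos. There were 4 dKO-E and 3 cKO-E embryos in sequencing batch 1, 2 of each in batch 2, and 1 dKO-E embryo in batch 3. Males made up 5 of the 7 dKO-E embryos and 1 of the 5 cKO-E embryos, and *Xist* and Y-linked counts matched the sex label of all 12. Expression is given in CPM, counts scaled to a common library size with TMM factors, for cKO-E embryos A to E in that order and for the 7 dKO-E embryos as the lowest, median and highest value. A log2 fold change is dKO-E over cKO-E and is given ± its SE, with the p value of edgeR's quasi-likelihood test after Benjamini-Hochberg adjustment over all genes tested, and a gene is said to have risen or fallen at an adjusted p below 0.05.

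*Trp53* (chromosome 11, 69580359 to 69591873) had 34.0, 43.7, 35.0, 39.5 and 43.9 CPM in cKO-E and 26.9, 36.0 and 42.4 CPM in dKO-E. These ranges overlapped, and the log2 fold change was -0.18 ± 0.11 (adjusted p = 0.322). *Trp53* had 36.7, 46.2 and 49.9 CPM at the lowest, median and highest of the ctrl embryos, and in a separate fit against ctrl the dKO-E value was -0.36 (adjusted p = 0.0196). *Ino80* (chromosome 2, 119373042 to 119477687) had 157, 173, 175, 146 and 181 CPM in cKO-E and 159.8, 189.5 and 199.8 CPM in dKO-E. It did not pass the test between the mutants, at 0.15 ± 0.068 (adjusted p = 0.154), and every embryo of either mutant lay above the ctrl range of 109.8 to 133 CPM. The counts are sums over whole genes, and a deletion of some exons with continued transcription of the rest cannot be seen in them, so they do not check the genotype labels. *Emx1*, the locus that carries Cre and a transcription factor of dorsal progenitors, had 75.4 to 145 CPM over all 12 and was higher in dKO-E at 0.45 ± 0.10 (adjusted p = 0.00536).

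Across 11746 genes with enough counts to test, 1106 were lower in dKO-E, which is 9.42%, and 657 were higher, which is 5.59%. The members called in each list below are to be read against these shares. The lower genes moved further: 228 of them changed by more than 1 on the log2 scale and 25 by more than 2, while 24 of the higher genes passed 1 and 0 passed 2. Every dKO-E embryo was below every cKO-E embryo for 545 genes (4.64%) and above for 296 genes (2.52%). Lack of overlap was a condition for naming the 12 genes per direction with the smallest p values. It is therefore not a result for them. On the lower side they are *Ano3*, *Eda2r*, *Galntl6*, *Aen*, *Dglucy*, *Cntn5*, *Inka2*, *Ccng1*, *Map3k20*, *Fam155a*, *Csmd3* and *Cdkn1a*. The median log2 fold change over all tested genes was 0.0212. Scaling by total counts alone in place of TMM factors turned the balance, with 942 lower and 1064 higher genes, and leaving out cKO-E embryo C, the only male of its group, left 789 lower and 346 higher. Within sequencing batch 1 alone 807 genes were lower and 446 higher, and within batch 2 alone, with 2 embryos of each group, 280 were lower and 25 higher. No gene of 11722 passed edgeR's quasi-likelihood test for a dKO-E effect that differed between these batches, and 615 had an unadjusted p under 0.05. With litter as a fixed term over all 19 libraries, where dKO-E of litter 1 and cKO-E of litters 4, 5 and 7 are the embryos with ctrl littermates, 555 genes were lower and 224 higher. In that fit 52 of the called genes chosen for description lost their calls and 2 changed sign, and the values of those described are given with them.

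**Figure D1:**
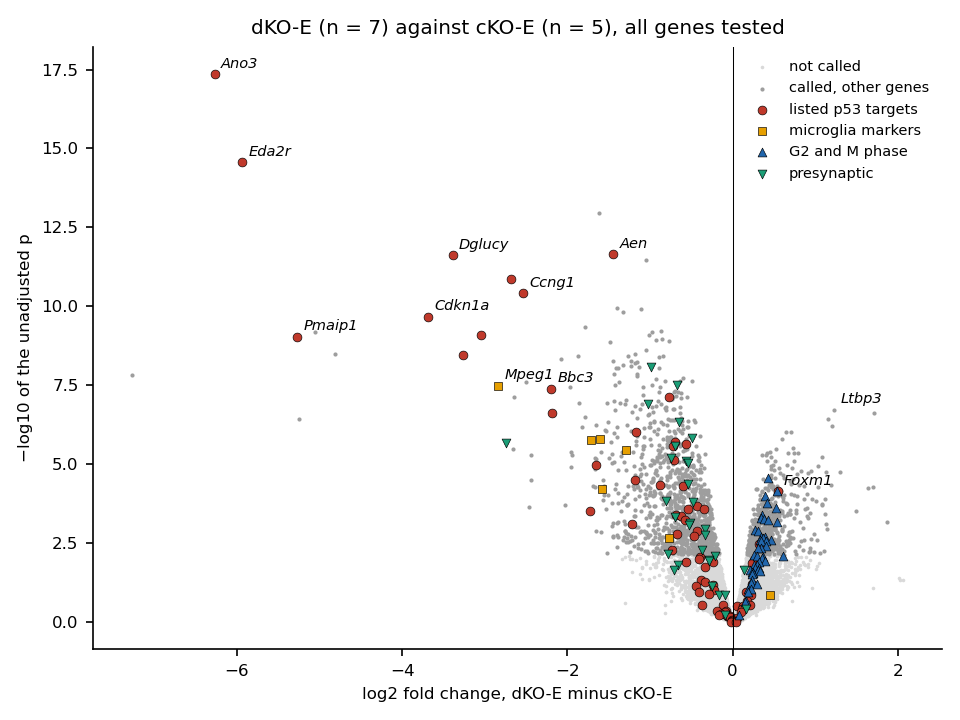
Log2 fold change of dKO-E over cKO-E (x axis) against -log10 of the unadjusted p value from edgeR's quasi-likelihood test (y axis), 1 point for each of 11746 genes, with genes lower (1106) and higher (657) at a false discovery rate of 0.05 in dark grey and members of the p53 target, microglial, G2/M and presynaptic lists as coloured symbols whether called or not. Among the genes labelled, *Ano3* at -6.27 and *Eda2r* at -5.93, both listed p53 targets, lie farthest to the left, and no gene called higher reaches 2.

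The p53 target lists held 106 genes, of which 78 had enough counts to test. Of these 34 fell (43.6%) and 2 rose (2.56%) in dKO-E, against 9.42% and 5.59% of all genes. Their median log2 fold change was -0.38, against 0.0212 over all genes. A target expressed in cKO-E alone could pass the count filter through those embryos, so the share is a description, and the same holds for the lists that follow. Among the 47 targets with at least 10 counts in every library, 16 fell, against 871 of all 8376 genes under that filter. The summed level of the whole list was 2876 to 3088 CPM in cKO-E and 2378 to 2528 CPM in dKO-E, with 2480 to 2544 CPM in ctrl. The dKO-E range lay below every cKO-E embryo. It overlapped that of ctrl only through dKO-E embryos A (2528 CPM) and G (2485 CPM). The other dKO-E embryos were below the lowest ctrl embryo. In the fit with litter as a fixed term 15 of 78 targets fell, against 555 of all 12048 genes. Within batch 2 alone 12 of 70 targets did, against 280 of all 10821 genes. The 15 comprised 7 arrest genes, 3 cell death genes, 1 repair or metabolism gene, 4 other targets and 0 regulators of p53.

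Arrest genes held some of the deepest falls, with 9 of 17 tested lower, 1 higher and a median of -0.70. *Cdkn1a*, which encodes the CDK inhibitor p21, had 10.9, 10.4, 11.7, 8.65 and 8.44 CPM in cKO-E and 0, 0.471 and 1.35 CPM in dKO-E. All 7 dKO-E embryos were below the lowest cKO-E embryo and within the ctrl range of 0 to 1.67 CPM, and the log2 fold change was -3.69 ± 0.31 (adjusted p = 2.11e-07). *Ccng1*, which encodes cyclin G1, a regulator of p53 turnover, had 49.1, 42.8, 48.1, 25.9 and 39.5 CPM in cKO-E and 4.44, 6.68 and 15.9 CPM in dKO-E. The groups did not overlap, at -2.54 ± 0.19 (adjusted p = 5.52e-08), and the highest dKO-E value belonged to embryo E, well above the next. *Inka2*, which encodes an inhibitor of the kinase PAK4, had 29.0, 28.7, 29.5, 18.5 and 30.4 CPM in cKO-E against 1.67, 3.36 and 6.66 CPM in dKO-E. It fell by 2.68 on the log2 scale without overlap. *Sesn2*, which encodes a sestrin that restrains mTORC1, fell from 12.2, 11.8, 8.75, 11.1 and 11.5 CPM to 0.737, 1.12 and 2.97 CPM, a log2 fold change of -3.05 ± 0.27 (adjusted p = 5.53e-07). *Sesn1*, its paralog and also a p53 target, did not pass the test at 0.00 ± 0.085 (adjusted p = 0.992), and neither did the antiproliferative gene *Btg2* at 0.10 ± 0.14 (adjusted p = 0.712). *Btg1*, of the same family as *Btg2*, was the 1 arrest gene that rose, from 25.7, 31.3, 31, 22.2 and 36.8 CPM to 39.0, 44.3 and 50.6 CPM (0.55 ± 0.11, adjusted p = 0.00187). *Cdkn1a* and *Btg1* lost their calls with litter as a fixed term, at -2.63 and 0.57 (adjusted p from 0.0715 to 0.176).

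**Figure D2:**
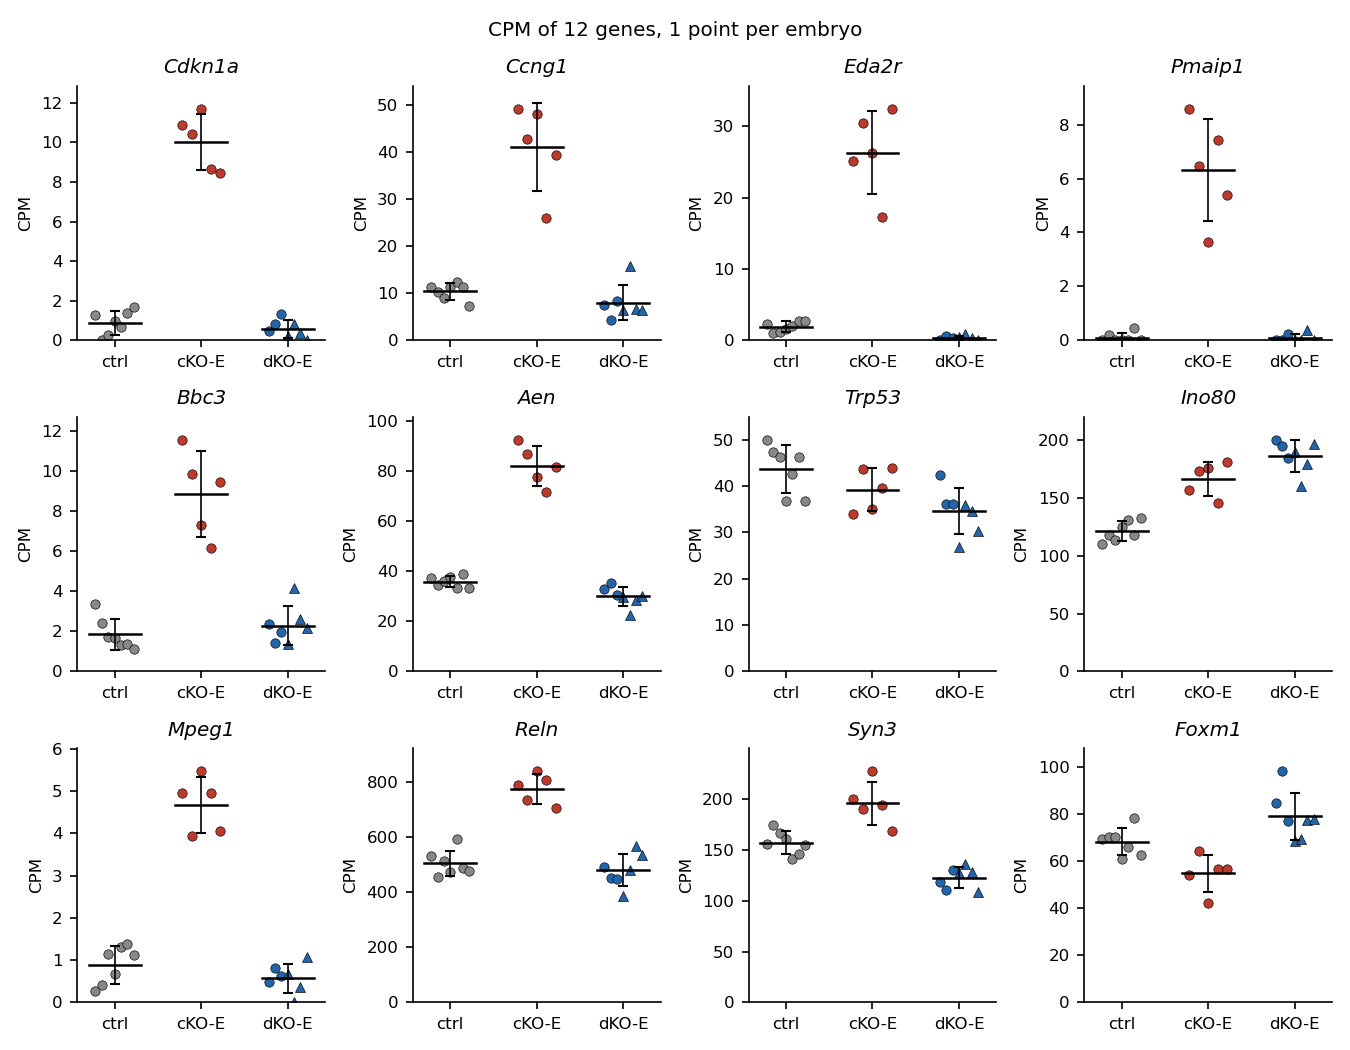
CPM of each embryo (points, y axis from 0) in ctrl, cKO-E and dKO-E (x axis) for 12 genes, with bars at the group mean and error bars of 1 SD, and with dKO-E litter 1 as circles and litter 2 as triangles. *Cdkn1a*, *Eda2r* and *Pmaip1* stand near 0 in all 7 dKO-E embryos of both litters and are high in all 5 cKO-E embryos.

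Cell death genes fell in 7 of 12 tested, with a median of -0.60 and none higher. *Eda2r*, which encodes a death-domain receptor for ectodysplasin A2, had 25.1, 30.4, 26.2, 17.3 and 32.4 CPM in cKO-E and 0, 0.371 and 0.837 CPM in dKO-E. No dKO-E embryo reached 1 CPM, and the log2 fold change was -5.93 ± 0.26 (adjusted p = 1.56e-11). *Aen*, an apoptosis-enhancing exonuclease, had 92.3, 86.8, 77.7, 71.6 and 81.7 CPM in cKO-E and 22.6, 30.3 and 35.1 CPM in dKO-E, and its groups were apart at -1.45 ± 0.092 (adjusted p = 5.52e-09). *Bbc3* and *Pmaip1* encode PUMA and NOXA, the BH3-only proteins that free the mitochondrial death pathway. *Bbc3* had 11.5, 9.86, 7.29, 6.18 and 9.45 CPM in cKO-E and 1.34, 2.16 and 4.18 CPM in dKO-E. There was no overlap, and the log2 fold change was -2.19 ± 0.25 (adjusted p = 7.72e-06). *Pmaip1* had 8.57, 6.48, 3.65, 7.41 and 5.398 CPM in cKO-E, was 0 in most dKO-E embryos and reached 0.371 CPM in the highest. It held 81 counts over the 5 cKO-E libraries and 3 over the 7 dKO-E libraries, a ratio of 50.5 in CPM with a 95% counting interval of 16.7 to 250. *Bax*, the pore-forming partner of these proteins, did not pass the test at -0.45 ± 0.24 (adjusted p = 0.231). The wider BCL2 family, antiapoptotic members included, had 3 of 12 tested lower. *Pmaip1* lost its call with litter as a fixed term, at -5.22 (adjusted p = 0.218).

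Of the regulators of p53 itself 2 of 10 tested were lower, with a median of -0.10. *Mdm2*, the main ubiquitin ligase of p53 and itself a p53 target, was at -0.03 ± 0.083 (adjusted p = 0.872). *Ppm1d*, which encodes the phosphatase WIP1, was at 0.16 ± 0.094 (adjusted p = 0.304) and *Mdm4* at -0.01 ± 0.056 (adjusted p = 0.967). The 2 that fell were *Dusp4*, a MAP kinase phosphatase, at -0.72 ± 0.11 (adjusted p = 1.65e-04) and *Trp73*, the p53 relative expressed in Cajal-Retzius cells, at -0.88 ± 0.17 (adjusted p = 0.00138). *Trp73* is also counted among the Cajal-Retzius genes described further on. *Dusp4* and *Trp73* lost their calls with litter as a fixed term, at -0.53 and -0.71 (adjusted p from 0.111 to 0.246).

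Among other p53 targets 12 of 22 tested fell and 0 rose, with a median of -0.45. *Ano3*, which encodes an anoctamin, had 83.7, 75.0, 82.0, 69.2 and 91.8 CPM in cKO-E and 0, 1.01 and 1.86 CPM in dKO-E. This was the largest absolute log2 fold change among called genes with a mean of at least 10 counts, -6.27 ± 0.20 (adjusted p = 5.28e-14), and the ctrl embryos had 2.03, 4.26 and 7.85 CPM. *Dglucy*, which encodes D-glutamate cyclase, had 30, 24.8, 21.5, 23.5 and 31.4 CPM in cKO-E and 1.84, 2.23 and 7.57 CPM in dKO-E (-3.39 ± 0.22, adjusted p = 5.52e-09). Embryo G was the highest dKO-E embryo and stood apart from the others. *Zfp365*, linked to genome stability, and *Psrc1*, a spindle protein, fell by 2.19 and 0.71 on the log2 scale. Repair and metabolism targets had 4 of 17 tested lower (23.5%) and 1 higher (5.88%), against 9.42% and 5.59% of all genes. The lower ones were *Slc19a2*, a thiamine transporter, at -1.18, *Cpt1c*, a brain carnitine palmitoyltransferase, at -0.60, *Polk*, a translesion polymerase, at -0.53, and *Ercc5*, a nuclease of excision repair, at -0.34. *Pank1*, a pantothenate kinase, rose at 0.32 ± 0.10 (adjusted p = 0.0285), a call lost in 7 of the 12 fits that each left out 1 embryo. *Zfp365*, *Psrc1*, *Slc19a2*, *Polk*, *Ercc5* and *Pank1* lost their calls with litter as a fixed term, at -1.69, -0.65, -1.25, -0.54, -0.34 and 0.38 (adjusted p from 0.0643 to 0.272).

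Noncoding RNAs tied to p53 were measured beside the Myc genes, and 4 of 11 tested fell. *Trp53cor1*, also known as lincRNA-p21 and transcribed next to *Cdkn1a*, held 70 counts over the cKO-E libraries and 3 over the dKO-E libraries, a ratio of 43.6 in CPM with a 95% counting interval of 14.3 to 217. *Pvt1*, a noncoding neighbour of *Myc*, had 117, 154, 140.4, 124 and 129.9 CPM in cKO-E and 48.6, 65.0 and 98.0 CPM in dKO-E (-0.98 ± 0.12, adjusted p = 2.09e-05) without overlap. *Meg3*, an imprinted RNA, and *Malat1*, a nuclear RNA, fell by 0.61 and 0.34. *Myc* itself was at 0.08 ± 0.28 (adjusted p = 0.908). Of the 4 falls 2 were left under a fixed term for litter. *Trp53cor1* and *Pvt1* lost their calls with litter as a fixed term, at -4.19 and -0.54 (adjusted p from 0.106 to 0.25).

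**Figure D3:**
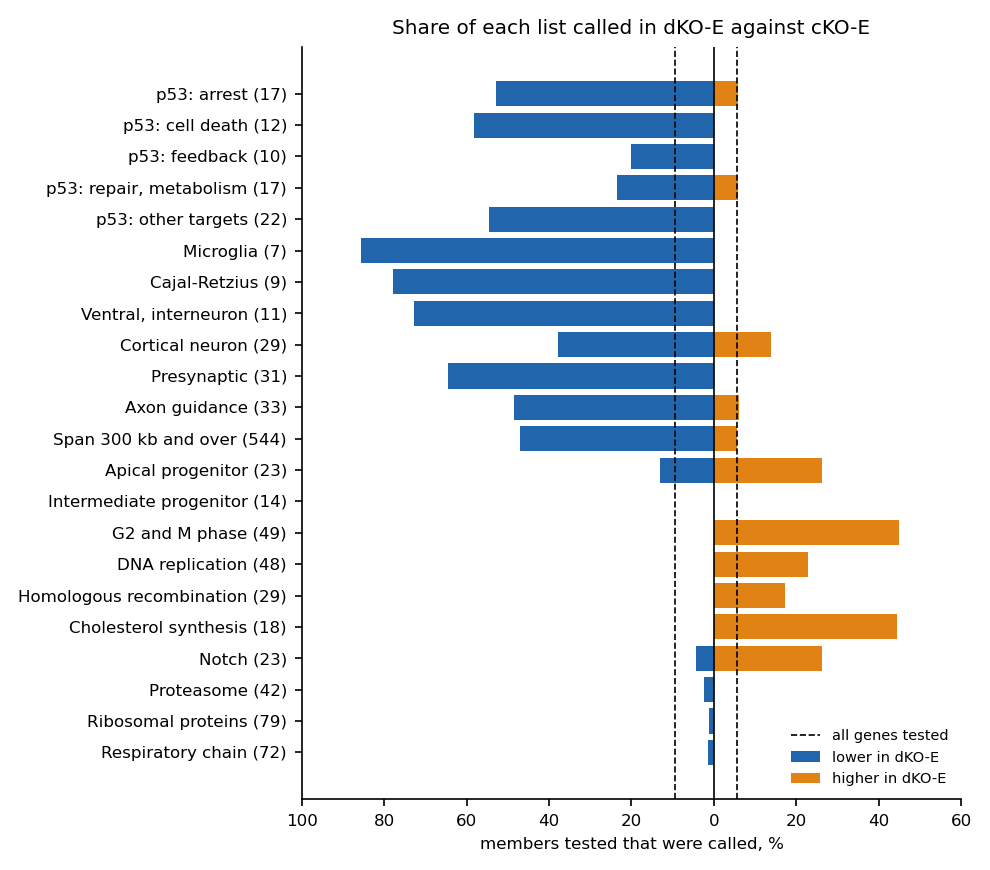
Percentage of tested members of each gene list that were lower (left of 0) or higher (right of 0) in dKO-E than in cKO-E at a false discovery rate of 0.05, with the number tested beside each name and dashed lines at the shares over all 11746 genes (9.42% lower, 5.59% higher). Microglial, Cajal-Retzius, ventral interneuron, presynaptic and p53 lists extend to the left, and G2/M and cholesterol lists to the right.

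Microglia are the phagocytes of the brain, enter from the yolk sac and are not of the *Emx1* lineage. The summed level of all 40 listed genes was 103 to 136 CPM in cKO-E and 38.6 to 55.9 CPM in dKO-E, without overlap, and 35.4 to 51.7 CPM in ctrl. Of the 40, 7 had enough counts to test and 6 of these fell, with a median of -1.58, but low genes such as *Mpeg1*, at 0 to 5 counts per dKO-E library, could pass the count filter through cKO-E, so this share is a description. *Mpeg1*, a perforin of phagocytes, had 4.95, 3.94, 5.47, 4.94 and 4.05 CPM in cKO-E and 0, 0.614 and 1.08 CPM in dKO-E (-2.84 ± 0.32, adjusted p = 6.66e-06). *Cx3cr1*, the fractalkine receptor that defines microglia, had 9.23, 8.73, 10.6, 13.6 and 9.11 CPM in cKO-E and 1.67, 4.25 and 4.84 CPM in dKO-E (-1.29 ± 0.20, adjusted p = 2.00e-04). *Inpp5d* and *Dock2*, signalling genes of blood-derived cells, fell by 1.60 and 1.72. Neither *Mpeg1* nor *Cx3cr1* overlapped between the groups, and the part of these cells in the values of other genes was not tested. The markers *Itgam* and *Irf8* were listed at 0 in all 12 embryos. When litter was a fixed term 2 of the 7 fell, and within batch 2 alone 0 of the 3 that could be tested did. In bulk tissue, fewer cells of a type and less RNA per cell cannot be told apart, here and for the cell types that follow. Of 5 tested interferon response genes, which activated microglia can express, 0 passed edgeR's quasi-likelihood test, 0 had an unadjusted p under 0.05 and 0 passed by DESeq2. *Mpeg1* and *Cx3cr1* lost their calls with litter as a fixed term, at -1.14 and -0.88 (adjusted p from 0.419 to 0.621).

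Cajal-Retzius cells, the earliest neurons of the marginal zone, arise largely from medial sources that include the cortical hem. Of 9 tested markers 7 fell, the other 2 were also below 0, and the median was -0.76. *Reln*, the secreted glycoprotein that guides neuronal layering, had 788, 732, 838, 804 and 705 CPM in cKO-E and 387, 480.2 and 565 CPM in dKO-E. No dKO-E embryo reached the lowest cKO-E embryo, and the log2 fold change was -0.70 ± 0.081 (adjusted p = 9.07e-06). *Ebf3*, a transcription factor of these cells, had 74.2, 58.3, 74.0, 67.9 and 87.7 CPM in cKO-E and 32.5, 46.0 and 51.9 CPM in dKO-E (-0.74 ± 0.11, adjusted p = 1.03e-04), also without overlap. The summed list was 943 to 1079 CPM in cKO-E, 521 to 722 CPM in dKO-E and 587 to 805 CPM in ctrl. *Reln* made up most of this sum, with 838 of 1079 CPM in cKO-E embryo C and 387 of 521 CPM in dKO-E embryo D. The sum therefore largely repeats that gene. With litter as a fixed term 1 of the 9 fell, and within batch 1 alone 3 did. Of 4 tested genes of the hem and choroid plexus 2 fell, *Rspo3*, a WNT agonist, at -1.16 ± 0.17 (adjusted p = 9.91e-05) and *Lmx1a*, a hem and roof plate factor, at -2.46 ± 0.55 (adjusted p = 0.00438). *Lmx1a* had 6.92, 3.94, 1.82, 4.94 and 22.3 CPM in cKO-E, with embryo E far above the rest, and without that embryo its log2 fold change was -1.52. *Ebf3* and *Lmx1a* lost their calls with litter as a fixed term, at -0.49 and -1.69 (adjusted p from 0.205 to 0.462).

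Markers of ventral forebrain interneurons, which migrate into the cortex and escape the Cre, were lower for 8 of 11 tested, with a median of -0.76. *Dlx1*, a homeobox gene of GABAergic neurons, had 7.25, 5.92, 8.02, 8.65 and 5.74 CPM in cKO-E and 1.01, 2.23 and 3.77 CPM in dKO-E. Its groups did not overlap (-1.43 ± 0.28, adjusted p = 0.00166). *Erbb4*, a neuregulin receptor of migrating interneurons and also apart, had 685, 755, 944, 724 and 491 CPM in cKO-E and 210, 438 and 477 CPM in dKO-E (-0.87 ± 0.17, adjusted p = 0.00131). The summed level of all 23 listed genes was 812 to 1326 CPM in cKO-E and 417 to 773 CPM in dKO-E, again apart, and 255 to 904 CPM in ctrl, a span that covers much of both. In ctrl, batch 1 embryos had 593 to 904 CPM and batch 2 embryos had 255 to 451 CPM. *Erbb4* made up most of this sum in the mutants, with 944 of 1326 CPM in cKO-E embryo C and 210 of 417 CPM in dKO-E embryo B. The sum therefore largely repeats that gene. A fixed term for litter left 4 of the 11. Within batch 1 alone 4 fell, and within batch 2 alone 2 of 10. *Dlx1* lost its call with litter as a fixed term, at -1.69 (adjusted p = 0.164).

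**Figure D4:**
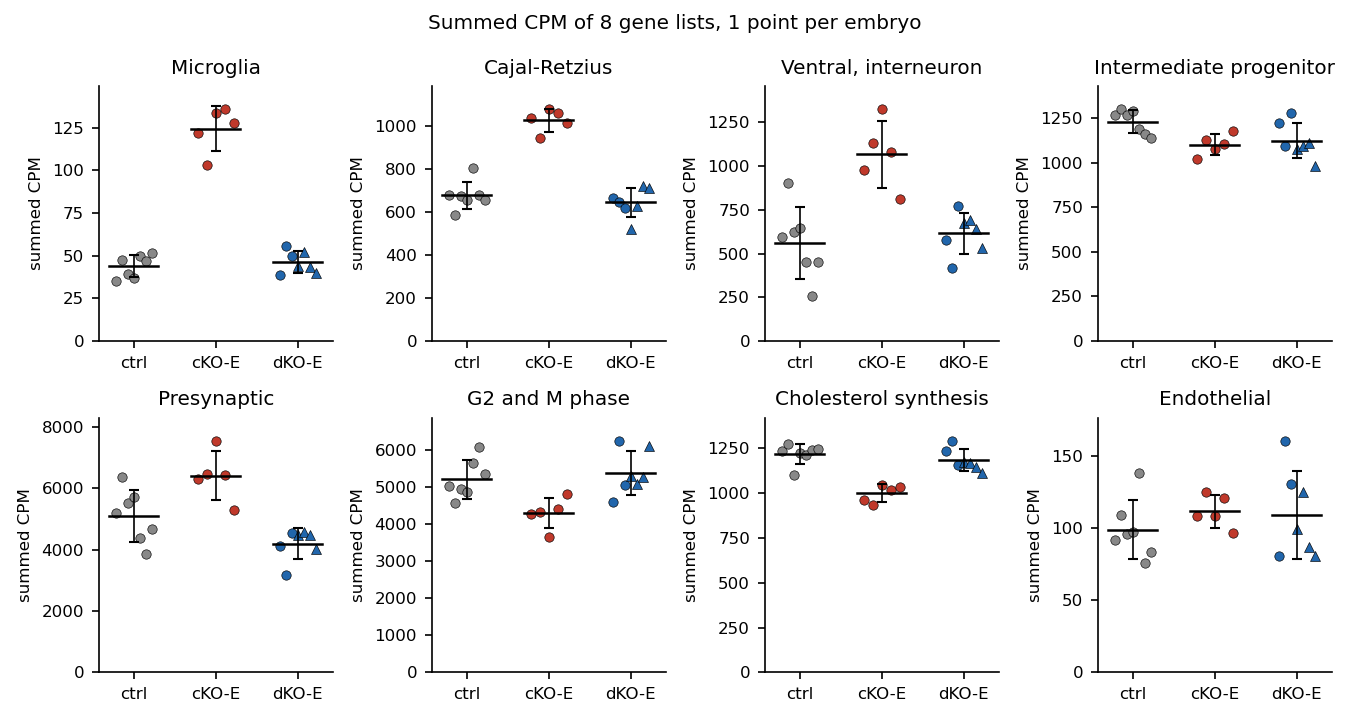
Summed CPM of all members of a gene list in each embryo (points, y axis from 0) by group (x axis), with bars at the mean, error bars of 1 SD, and dKO-E litter 1 as circles and litter 2 as triangles. Microglial genes sit at 103 to 136 CPM in cKO-E and at 38.6 to 55.9 CPM in dKO-E, near the ctrl embryos.

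Markers of apical progenitors, the dividing cells that line the ventricle, went in either direction, with 3 of 23 tested lower and 6 higher. *Notch1*, the receptor that maintains progenitors, had 136, 166, 129, 167 and 162 CPM in cKO-E and 179.6, 201 and 223 CPM in dKO-E, and it rose without overlap (0.42 ± 0.078, adjusted p = 9.81e-04). *Nr2e1* (TLX), a nuclear receptor of stem cells, was at 0.52 ± 0.13 (adjusted p = 0.0134), and *Lhx2*, a selector of cortical identity, at 0.48 ± 0.13 (adjusted p = 0.0173). Each of these last lost its call when cKO-E embryo A was left out. With dKO-E of litter 1 alone *Nr2e1* and *Lhx2* were at 0.76 and 0.70 and were called. With dKO-E of litter 2 alone they were at 0.22 and 0.26 and were not called (adjusted p = 0.211 and 0.0503). Within batch 2 alone they were at 0.046 and 0.11. *Tnc*, a matrix protein of radial glia, had 34.3, 30.1, 44.5, 25.9 and 23.6 CPM in cKO-E and 5.24, 13.7 and 17.8 CPM in dKO-E and fell (-1.35 ± 0.22, adjusted p = 2.80e-04), and *Ptprz1*, a receptor phosphatase of the same cells, was lower at -0.28. *Sox2* was listed at 0 in all 12 embryos, which does not show that it was absent, since the paper stained SOX2 in progenitors of cKO-E cortex at this age. The counting drops reads over overlapping genes, and its part in this 0 was not tested. Of 14 tested markers of intermediate progenitors 0 passed edgeR's quasi-likelihood test, 4 had an unadjusted p under 0.05 and 0 passed by DESeq2, and *Eomes*, which encodes their defining factor TBR2, was at 0.18 ± 0.10 (adjusted p = 0.261). Endothelial genes also gave 0 calls among 10 by edgeR's quasi-likelihood test, 0 had an unadjusted p under 0.05 and 0 passed by DESeq2, and 1 of 5 mural genes rose, *Notch3*, which progenitors share. The apical genes that rose numbered 3 with counts summed per litter and 0 within batch 2 alone, and 3 intermediate progenitor genes rose under total-count scaling. *Ptprz1* lost its call with litter as a fixed term, at -0.44 (adjusted p = 0.0535).

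Projection neuron genes were lower for 11 of 29 tested and higher for 4, with a median of -0.18. *Mef2c*, an activity-regulated factor of maturing neurons, had 147, 178, 218, 159 and 122 CPM in cKO-E and 66.8, 77.8 and 98.9 CPM in dKO-E (-1.08 ± 0.12, adjusted p = 7.16e-06). *Zfpm2* (FOG2), of corticothalamic neurons, had 578, 621, 785, 639 and 637 CPM in cKO-E and 389.9, 414 and 462 CPM in dKO-E (-0.64 ± 0.071, adjusted p = 5.44e-06). Neither gene overlapped between the groups. *Nr4a2*, a nuclear receptor of subplate and lateral cortical neurons, went the other way, from 21.8, 18.03, 17.5, 17.3 and 29.4 CPM to 34.3, 45.7 and 63.6 CPM (1.21 ± 0.17, adjusted p = 5.53e-05), and so did the layer 6 gene *Foxp2* at 0.47 ± 0.081 (adjusted p = 5.61e-04). Of genes of lateral cortex and of areal patterning, listed together, 3 of 10 fell (30.0%, against 9.42% of all genes). Among them were the ETS factors *Etv5* at -1.37 ± 0.15 (adjusted p = 5.62e-06) and *Etv1* at -0.96 ± 0.18 (adjusted p = 8.99e-04). Of medial cortical genes 2 of 13 fell, *Zic2* at -0.62 and *Zbtb20* at -0.25, and *Lhx2* rose. These shares, 15.4% and 7.69%, were near the 9.42% and 5.59% of all genes. The call of *Zbtb20* was lost in 9 of the 12 fits without 1 embryo. Within batch 2 alone 5 of the projection neuron genes fell and 1 rose. Under a fixed term for litter 10 fell and 1 rose, with 1 gene of the lateral and areal list and 0 medial genes lower. *Foxp2*, *Etv5*, *Etv1*, *Zic2* and *Zbtb20* lost their calls with litter as a fixed term, at 0.34, -1.08, -0.52, -0.14 and -0.40 (adjusted p from 0.0774 to 0.858).

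Presynaptic genes were lower for 20 of 31 tested and higher for 0, with a median of -0.53. *Syn3*, a synapsin of developing neurons, had 199.8, 189.6, 227, 194 and 168 CPM in cKO-E and 108, 127 and 136 CPM in dKO-E (-0.68 ± 0.076, adjusted p = 6.57e-06), and the groups were apart. The summed list was 5299 to 7560 CPM in cKO-E and 3173 to 4582 CPM in dKO-E, with 3853 to 6364 CPM in ctrl. The ctrl embryos of batch 1 had 5201 to 6364 CPM and those of batch 2 had 3853 to 4664 CPM. The part of batch in these ctrl levels was not tested. Axon guidance genes were lower for 16 of 33 and higher for 2. *Sema6a*, a transmembrane semaphorin, had 211, 198, 256, 209 and 249 CPM in cKO-E and 82.9, 104 and 130.1 CPM in dKO-E (-1.05 ± 0.10, adjusted p = 1.21e-06). *Slit3*, a repellent ligand, had 349, 302, 628, 455 and 319 CPM in cKO-E and 135, 150.3 and 202 CPM in dKO-E (-1.41 ± 0.15, adjusted p = 2.55e-06). The 2 that rose were *Epha4*, an ephrin receptor, at 0.32 ± 0.072 (adjusted p = 0.00514) and *Robo3*, a receptor of crossing axons, at 0.59 ± 0.19 (adjusted p = 0.0378), and *Robo3* lost its call in 7 of 12 such fits. Interneuron and Cajal-Retzius markers fell in the same embryos, by the summed levels given above, which were mostly *Erbb4* and *Reln*. Their part in these results was not tested. Within batch 2 alone 5 of 30 presynaptic genes fell, and a fixed term for litter left 19 presynaptic and 7 axon guidance genes lower. *Robo3* lost its call with litter as a fixed term, at 0.99 (adjusted p = 0.16).

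Long genes were lower more often than short ones. Of tested genes that span 300 kb or more 47.1% were lower and 5.70% higher, with a median log2 fold change of -0.30 over 544 genes. The share lower was 22.4% from 100 to 300 kb, 7.34% from 30 to 100 kb, 3.93% from 10 to 30 kb and 3.44% under 10 kb. The share higher ran from 2.95% under 10 kb to 7.43% from 100 to 300 kb. Summed over all genes of 300 kb or more, the level was 211000 to 246400 CPM in cKO-E and 177900 to 209100 CPM in dKO-E, and these ranges did not overlap. The ctrl embryos ran from 228400 to 244200 CPM in batch 1 and from 202200 to 211900 CPM in batch 2. Among these genes, *Cntn5*, an immunoglobulin adhesion molecule, had 534, 562, 615, 630 and 583 CPM in cKO-E and 252, 291 and 312 CPM in dKO-E (-1.05 ± 0.068, adjusted p = 6.76e-09). *Galntl6*, of the family that starts O-linked glycans, had 162, 189, 171, 182 and 189.9 CPM in cKO-E and 47.1, 58.1 and 75.7 CPM in dKO-E (-1.61 ± 0.087, adjusted p = 4.32e-10). Both genes were clear of overlap, which was a condition for naming them by small p values. The neuronal lists above were lower in the same embryos, and their part in this gradient was not tested. Of the genes of 300 kb or more 174 fell under a fixed term for litter and 118 of 529 within batch 2 alone, against 256 in the fit of the 12 embryos.

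**Figure D5:**
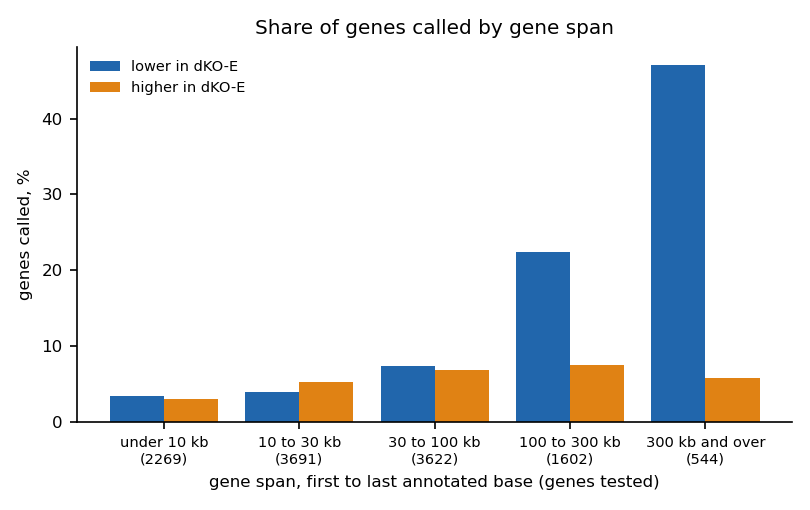
Share of tested genes lower and higher in dKO-E (y axis, percent) in 5 classes of genomic span from under 10 kb to 300 kb and over (x axis). The lower share climbs from 3.44% to 47.1%, while the higher share stays between 2.95% and 7.43%.

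Genes of the G2/M phase were higher. All 49 tested lay above 0, 22 of them rose, 0 fell, and the median log2 fold change was 0.32. *Foxm1*, the transcription factor that drives this programme, had 54.1, 64.2, 42.3, 56.8 and 56.7 CPM in cKO-E and 68.8, 77.6 and 98.2 CPM in dKO-E, and its lowest dKO-E embryo was above its highest cKO-E embryo (0.54 ± 0.11, adjusted p = 0.00188). *Kif20b*, a kinesin of cytokinesis, had 104, 104, 94.8, 106 and 103 CPM in cKO-E and 114, 136 and 158 CPM in dKO-E (0.42 ± 0.078, adjusted p = 9.11e-04). The summed list overlapped only through cKO-E embryo E and dKO-E embryo A, with 3654 to 4794 CPM in cKO-E, 4579 to 6243 CPM in dKO-E and 4553 to 6063 CPM in ctrl. In ctrl, batch 1 embryos had 4553 to 5028 CPM and batch 2 embryos had 5335 to 6063 CPM. DNA replication genes rose in 11 of 48 tested and fell in 0, with *Mcm5*, a helicase subunit, at 0.42 ± 0.10 (adjusted p = 0.00569) and *Pola2*, a subunit of polymerase alpha, at 0.46 ± 0.10 (adjusted p = 0.00414). Of replication-dependent histone genes 1 of 43 rose, *Hist1h2be*, at 0.57 ± 0.14 (adjusted p = 0.00861). Among G1 regulators 2 of 23 fell, *Ccnd1* (cyclin D1) at -0.46 and *Rb1* at -0.20, and 3 rose, *E2f3* at 0.40, *E2f2* at 0.44 and *Rbl1* (p107) at 0.22. Calls were lost without 1 embryo in 7 of 12 fits for *Ccnd1*, 5 for *Rb1* and 8 for *Rbl1*, and *Ccnd1* was at 0.12 when litter was a fixed term. Under a fixed term for litter 10 G2/M genes and 4 replication genes rose, with batch and sex as terms the replication count was 19, and within batch 2 alone neither list had a call. Summed per litter, the counts gave 12 G2/M and 3 replication genes higher, and with batch and sex as terms 15 histone genes rose. *Pola2* and *Rb1* lost their calls with litter as a fixed term, at 0.58 and -0.26 (adjusted p from 0.0509 to 0.166).

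None of the tested genes on the lists for homologous recombination, damage signalling and end joining fell. Repair genes on the p53 target lists are described above. Homologous recombination genes rose in 5 of 29 tested and fell in 0, with a median of 0.24. *Rad51b*, which assists strand exchange, had 237, 266, 210.4, 290.3 and 322 CPM in cKO-E and 325, 346 and 362 CPM in dKO-E, without overlap (0.39 ± 0.084, adjusted p = 0.00368). *Rad54b*, a DNA translocase, was at 0.37 ± 0.089 (adjusted p = 0.0077), and *Rad54l*, *Xrcc2* and *Brip1* were at 0.34, 0.37 and 0.27. *Brca2* did not pass the test, at 0.07 ± 0.11 (adjusted p = 0.76). Damage signalling genes rose in 6 of 21 and fell in 0, among them *Clspn* (claspin) at 0.48 ± 0.10 (adjusted p = 0.00272) and *Mdc1*, which binds marked chromatin at breaks, at 0.33 ± 0.078 (adjusted p = 0.00594). End joining genes rose in 2 of 14, *Xrcc5* (KU80) at 0.38 ± 0.081 (adjusted p = 0.00332) and *Polq* at 0.26 ± 0.08 (adjusted p = 0.0362), the latter lost in 6 of 12 fits without 1 embryo. That share was 14.3%, against 5.59% of all genes. The G2/M and replication genes, many of which peak in the same phases of the cycle, rose in these embryos, and their part in the repair genes' values was not tested. Of the 15 subunits of the INO80 complex *Yy1* rose, at 0.19 ± 0.06 (adjusted p = 0.0381), which was lost in 7 of 12 such fits, and the others did not pass. The homologous recombination genes that rose numbered 1 with counts summed per litter, 0 within batch 2 alone, 9 under total-count scaling and 10 with batch and sex as terms. For damage signalling genes these counts were 3, 0, 8 and 9, and with batch and sex as terms 1 damage signalling gene and 1 end joining gene fell. *Rad54b*, *Mdc1*, *Xrcc5*, *Polq* and *Yy1* lost their calls with litter as a fixed term, at 0.38, 0.35, 0.38, 0.50 and 0.22 (adjusted p from 0.0738 to 0.23).

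Cholesterol synthesis genes rose in 8 of 18 tested and fell in 0, with a median of 0.23. *Nsdhl*, a demethylation enzyme of this route, had 24.4, 24.5, 33.9, 24.7 and 25.6 CPM in cKO-E and 33.3, 38.2 and 44.6 CPM in dKO-E (0.52 ± 0.11, adjusted p = 0.00399). In the Notch pathway 6 of 23 rose and 1 fell. *Notch3* had 70.2, 78.1, 69.3, 80.3 and 82.3 CPM in cKO-E and 88.0, 104 and 117 CPM in dKO-E (0.44 ± 0.083, adjusted p = 0.00134), and *Jag1*, a ligand, had 24.4, 26.5, 31, 21 and 22.6 CPM and 11.5, 15.1 and 18.1 CPM and was the gene that fell (-0.75 ± 0.13, adjusted p = 7.38e-04). In the integrated stress response 4 of 22 fell, with *Sesn2* and *Aldh1l2*, a mitochondrial folate enzyme (-0.59), among them, and 1 rose, *Shmt2* (0.65). The shares were 18.2% and 4.55%, against 9.42% and 5.59% of all genes. A fixed term for litter left 1 cholesterol gene and 1 fall in the stress response, counts summed per litter left 5 cholesterol genes, and within batch 2 alone 0 cholesterol and 0 Notch genes rose. *Nsdhl*, *Jag1* and *Aldh1l2* lost their calls with litter as a fixed term, at 0.10, -0.32 and -0.99 (adjusted p from 0.079 to 0.857).

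Housekeeping groups were close to 0. Ribosomal protein genes had a median of -0.021, and 1 of 79 fell, *Rps27l*, which is itself a p53 target (-0.67 ± 0.18, adjusted p = 0.017). The respiratory chain had a median of -0.015 and 1 of 72 fell, *Atp5o*, a subunit of ATP synthase, at -0.64 (0.11 when litter was a fixed term). The proteasome had 1 of 42 lower, *Psmd5*, an assembly chaperone, at -0.36 (lost in 8 of 12 fits without 1 embryo), and a median of 0.02. The medians of the ribosomal protein and respiratory chain genes took the opposite sign under total-count scaling. Of 17 genes of hypoxia and glycolysis *Pfkp*, the platelet-type phosphofructokinase, fell at -0.98 ± 0.16 (adjusted p = 3.52e-04). With batch and sex as terms 5 ribosomal protein genes rose. *Rps27l* and *Psmd5* lost their calls with litter as a fixed term, at -0.80 and -0.43 (adjusted p from 0.21 to 0.226).

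Other falls with small p values included that of *Map3k20* (ZAK), a stress-activated kinase, with 72.2, 82.6, 69.7, 66.7 and 76.6 CPM in cKO-E and 21.6, 25.9 and 37.9 CPM in dKO-E (-1.40 ± 0.11, adjusted p = 1.45e-07). *Fam155a*, a subunit partner of the NALCN channel, had 356, 364, 417, 380.5 and 324 CPM in cKO-E and 133, 174 and 197 CPM in dKO-E (-1.11 ± 0.089, adjusted p = 1.45e-07), and *Csmd3*, a large CUB and sushi domain protein, had 254, 229.7, 334, 235 and 195 CPM and 87.2, 98.4 and 123 CPM (-1.33 ± 0.11, adjusted p = 1.58e-07). None of the 3 overlapped between the groups, but lack of overlap was a condition for naming genes by small p values. *Fam19a1*, a secreted neuronal peptide, had 62.3, 36.9, 286, 51.9 and 13.5 CPM in cKO-E and 0.605, 3.30 and 6.69 CPM in dKO-E. Every dKO-E embryo was lower, but cKO-E embryo C held far more than its group, and the log2 fold change of -5.25 ± 0.70 became -4.04 without it.

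The clearest rise was that of *Ltbp3*, which binds latent TGF-beta, with 14.5, 16.3, 14.2, 17.3 and 16.9 CPM in cKO-E and 30.2, 32.7 and 55.1 CPM in dKO-E (1.23 ± 0.16, adjusted p = 2.33e-05). *Gabre*, a GABA-A receptor subunit, had 3.96, 3.1, 2.19, 4.94 and 3.37 CPM in cKO-E and 8.85, 11.3 and 14.2 CPM in dKO-E (1.71 ± 0.22, adjusted p = 2.88e-05), and *Alk*, a receptor tyrosine kinase of neurons, had 46.8, 38.3, 42.7, 44.5 and 41.5 CPM and 58.1, 89.5 and 121 CPM (1.15 ± 0.15, adjusted p = 4.10e-05). All 7 dKO-E embryos exceeded all 5 cKO-E embryos for each of these genes. Lack of overlap was a condition for naming genes by small p values, so it is not a result for genes named that way. *Jph1*, *Ttyh1*, *Etl4*, *Fhl1* and *Rhbdl3* rose by 0.71, 0.65, 0.60, 0.73 and 0.67, and the forkhead repressors *Foxp4* and *Foxp1* by 0.52 and 0.41, again without overlap. *Cdca2*, a phosphatase anchor of mitotic chromatin, rose by 0.45. The higher genes with the largest log2 fold changes included the low-level genes *Capn11* (1.87 ± 0.46, adjusted p = 0.00946), *Adra1a* (1.64 ± 0.32, adjusted p = 0.00158) and *Car14* (1.49 ± 0.34, adjusted p = 0.00532), whose groups overlapped. *Alk*, *Foxp4* and *Capn11* lost their calls with litter as a fixed term, at 0.49, 0.33 and 1.47 (adjusted p from 0.157 to 0.522).

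Some genes differed between the mutants although cKO-E had an unadjusted p above 0.5 against ctrl. These comparisons share embryos, so their values are given side by side. The genes described were picked for this, and for mutant groups that do not overlap. That cKO-E was near ctrl and dKO-E apart is therefore not a result for them. *Tmem178b*, a transmembrane protein, had 541, 588, 678, 637 and 529 CPM in cKO-E, 352, 414 and 449.9 CPM in dKO-E and 495, 635 and 680.1 CPM in ctrl. Its log2 fold change was -0.54 ± 0.075 (adjusted p = 6.06e-05) between the mutants, -0.04 for cKO-E over ctrl and -0.59 for dKO-E over ctrl, so that dKO-E stood below the other groups. *Luzp2* had 53.1, 65.9, 72.6, 65.5 and 69.8 CPM in cKO-E, 25.4, 37.8 and 46.8 CPM in dKO-E and 53.7, 56.1 and 78.6 CPM in ctrl (-0.85 ± 0.12 between the mutants, adjusted p = 1.17e-04). The others of this kind that fell were *C230004F18Rik* at -0.66, *Malat1* at -0.34, *Gm26848* at -2.44 and *Ryr3*, a calcium release channel, at -0.58. Of those that rose, *Ccdc157* had 8.24, 10.1, 12.8, 7.41 and 11.1 CPM in cKO-E, 15.6, 18.6 and 20.5 CPM in dKO-E and 8.51, 11.6 and 13.6 CPM in ctrl (0.82 ± 0.14, adjusted p = 6.24e-04). *Cdh24*, a cadherin, was at 0.51 between the mutants, 0.02 for cKO-E over ctrl and 0.53 for dKO-E over ctrl. *Notch3*, *Rad51b*, *Haus6*, an augmin subunit of the spindle, and *Rprd1b*, a regulator of polymerase II, rose by 0.44, 0.39, 0.38 and 0.31, with cKO-E over ctrl at -0.02, 0.01, 0.00 and 0.01. *Gm26848*, *Ryr3*, *Ccdc157*, *Cdh24* and *Rprd1b* lost their calls with litter as a fixed term, at -0.18, -1.12, 0.77, 0.61 and 0.26 (adjusted p from 0.0524 to 0.867).

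The same values are given for genes with the smallest p values between the mutants. *Aen* was at 1.21 for cKO-E over ctrl and at -0.25 for dKO-E over ctrl, *Ccng1* at 2.03 and -0.50, *Inka2* at 1.94 and -0.77, and *Pvt1* at 1.32 and 0.32. *Inka2* passed the test of dKO-E over ctrl at an adjusted p of 0.0286, while *Ccng1* did not at 0.103. Among genes that rose in dKO-E, *Ltbp3* was at -1.03 and 0.19, and *Rhbdl3* at -1.14 and -0.48. *Foxp4* was at -0.79 and -0.28. *Fam155a* and *Csmd3* were below ctrl in dKO-E, at -0.80 and -0.73, and at 0.32 and 0.61 in cKO-E.

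Genes next to the engineered loci were counted apart. Within 5 Mb of *Trp53* 98 genes were tested, of which 8 fell and 5 rose, together 13.3% against 15.0% of all genes tested. Within 5 Mb of *Ino80*, for which both groups carry the floxed allele, 8 of 82 fell and 6 rose (17.1%), and within 5 Mb of *Emx1* 5 of 78 fell and 2 rose (8.97%). *Sat2*, a thialysine acetyltransferase gene that lies 0.0368 Mb from *Trp53*, had 1.32, 2.82, 1.09, 3.71 and 1.35 CPM in cKO-E, 4.64, 5.53 and 10.8 CPM in dKO-E and 0, 1.99 and 4.45 CPM in ctrl. Every dKO-E embryo was above every cKO-E and every ctrl embryo, and the log2 fold change was 1.70 ± 0.33 (adjusted p = 0.00152). *Aurkb*, the mitotic kinase Aurora B, 0.537 Mb away, rose by 0.53, and *Shisa6*, *Rap1gap2* and *Dnah9* fell by 0.47, 0.78 and 0.80. Near *Ino80*, *Bub1b*, a spindle checkpoint kinase, and *G630016G05Rik* rose by 0.40 and 0.54, while *Pak6*, *Sema6d* and *Frmd5* fell by 1.51, 0.54 and 0.39. *Sat2*, *Rap1gap2*, *Dnah9*, *G630016G05Rik* and *Frmd5* lost their calls with litter as a fixed term, at 1.85, -0.90, -0.93, 0.50 and -0.47 (adjusted p from 0.0547 to 0.184).

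The dKO-E embryos were also compared among themselves, 4 of litter 2 with 3 of litter 1, in a fit of 11524 genes. Here 6 genes passed (0.0521%), all lower in litter 2, and 1176 had an unadjusted p under 0.05. *Tcf7l1*, a WNT-pathway repressor of progenitors, ran from 347 to 366.5 CPM in litter 2 and from 486 to 567.6 CPM in litter 1, and every one of these embryos was above the highest cKO-E value of 321 CPM. It had also risen in dKO-E over cKO-E, at 0.73. The others were *Fli1*, *Gas1*, *Rplp1*, *Hist1h2ab* and *Gm42418*, none of which passed the test between the mutants. The count was 75 by DESeq2 and between 0 and 108 with 1 embryo left out, the most without embryo C. Litter 2 is all male and litter 1 holds 1 male of 3, embryo C, so litter and sex largely go together. Batch goes with litter too, since litter 1 was all in batch 1 and litter 2 spanned batches 1 to 3. For each of the 6 genes embryo C lay above every litter 2 embryo, as the litter 1 females did. The 6 were called by the litter comparison itself, so this is a description. The parts of sex and batch were not tested. Of 9 sex-linked genes 0 passed between the mutants by edgeR's quasi-likelihood test, 3 had an unadjusted p under 0.05 and 0 passed by DESeq2, and the Y-linked *Uty* ran from 0 to 168 CPM in cKO-E and from 0.202 to 230.1 CPM in dKO-E. For *Cdkn1a*, *Eda2r* and *Ano3* the log2 fold changes were -3.27, -6.00 and -6.16 with dKO-E of litter 1 alone, and -4.78, -5.84 and -6.48 with dKO-E of litter 2 alone.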

How the data were processed

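The data are counts of deduplicated reads per gene from 19 Click-seq libraries, each of 1 embryo. The authors trimmed reads with cutadapt 1.13, aligned them to GRCm38/mm10 with STAR 2.5.2a, deduplicated them by UMI with UMI-tools 0.5.3 and counted them with htseq-count 0.6.1p1 in intersection-nonempty mode, which drops reads over overlapping genes, and deposited unnormalized counts for 51912 genes. GENCODE M21 named 51719 of these. Groups are the genotype labels. Each comparison of groups was fitted without covariates by edgeR 4.0.16 (R 4.3.3). The settings were filterByExpr at a minimum count of 10, TMM factors, the quasi-likelihood test, Benjamini-Hochberg adjustment and a false discovery rate of 0.05. The fit for effects that differ between batches also held batch and its interaction with genotype. The comparison of dKO-E with cKO-E, and no other, was tested on simulated data. CPM use TMM factors over all 19 libraries, and 3 counts equal 0.369 to 3.71 CPM in these 12. The SE is the fold change divided by the square root of F. Intervals cover counting error alone.

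Genes named are *Trp53*, *Ino80*, *Emx1* and sex-linked genes, the 12 per direction with the smallest p whose groups do not overlap, the 5 per direction with the largest fold change at a mean of at least 10 counts, at most 2 called members per list and direction (4 for p53 and microglial lists), 6 per direction with an unadjusted p above 0.5 in cKO-E over ctrl, 5 called genes within 5 Mb of *Trp53* and of *Ino80*, and list members said not to pass. *E2f2*, *Rad54l*, *Xrcc2*, *Brip1* and the genes that differ between dKO-E litters were named after their values were seen. Members and lists were chosen with earlier results of these data known. Alternatives covered DESeq2 1.42.0, limma 3.58.1, other scalings, filters, covariates, blocks and subsets. Reads along exons and spike-ins were not analysed here. Some genes that this rule names are not reported here.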

Additional observations from a re-analysis of the deposited data

Results flagged for a closer look

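In 332 groups of 5 or 7 embryos, 1 embryo stood apart from its group by Dixon's criterion in 28 (8.43%), for 20 single-gene values and 8 list sums, and chance alone gives about 1 in 20 groups. Among p53 targets, dKO-E embryo E was high for *Ccng1* at 15.9 CPM, dKO-E G for *Dglucy* at 7.57 CPM and dKO-E A for *Cpt1c* at 41.0 CPM, while cKO-E D was low for *Inka2* at 18.5 CPM and for the summed p53 targets at 2876 CPM. Embryo dKO-E B stood apart most often, with high *Map3k20* (37.9 CPM), *Pvt1* (98.0 CPM), *Cdca2* (159.7 CPM), *Bub1b* (144.6 CPM) and *Lhx2* (397 CPM), with high sums for G1 (2503 CPM), hypoxia and glycolysis (828 CPM) and respiratory chain genes (2545 CPM), and with a low presynaptic sum (3173 CPM). Other high dKO-E values were *Mef2c* in C (98.9 CPM), *Rap1gap2* in F (23.8 CPM), and *Dnah9* (28.1 CPM), *Rbl1* (150.3 CPM) and the hem and choroid sum (112 CPM) in G. The interferon sum was high in dKO-E F (98.8 CPM), and mitochondrial genome transcripts were low in dKO-E A (2405 CPM). In cKO-E, embryo C was high for *Fam19a1* (285.5 CPM), *Dnah9* (30.3 CPM), *Nsdhl* (33.9 CPM) and the Y-linked *Uty* (168 CPM), being its group's only male, and low for *Kif20b* (94.8 CPM). *Cdh24* was low in cKO-E D (21 CPM) and *Lmx1a* high in cKO-E E (22.3 CPM).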

How the results depend on the processing

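The main counts were 1106 genes lower, 657 higher and 34 p53 targets lower in dKO-E. A false discovery rate of 0.001 left 323, 45 and 19. Higher genes numbered 1064 with total-count scaling, 1078 with sex as a term, 1023 with batch and sex, 245 with counts summed per litter, 389 with dKO-E of litter 2 alone, 384 in females, 284 in males and 425 without dKO-E embryos A, E and G, an alternative chosen after seeing the data. Lower genes numbered 675 in females, and p53 targets lower 20 in males and 16 with at least 10 counts in every library. With litter as a fixed term the counts were 555, 224 and 15, and in batch 2 alone 280, 25 and 12. In that litter fit *Atp5o* (0.11) and *Ccnd1* (0.12) changed sign, and the cause was not tested. Of the 1763 called genes 39 changed sign in that fit, 37 in batch 2 alone and 4 in males alone. Among the called genes chosen for description, calls were lost for 52 in the litter fit, 68 in batch 2 alone, 39 in males and 28 in females.

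Leaving out 1 embryo gave 789 to 1119 lower, 346 to 710 higher and 31 to 36 p53 targets lower, the fewest higher without cKO-E C. For dKO-E litter 2 against 1, the 6 genes became 75 by DESeq2, 241 with at least 1 count and 0 at a false discovery rate of 0.001, and 0 to 108 without 1 embryo (28 without A, 15 without B, 108 without C, 1 without D, and 0 without E, F or G).

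With the letter of the embryo as a replicate block, 932 genes were lower, 484 higher and 32 p53 targets lower. The letters mark no shared litter, same-lettered embryos correlated at -0.0873 to 0.153 in their deviations from the group means, and 1 of the 5 cKO-E embryos correlated best with its own letter. Depth limits the low genes, since 3 counts equal up to 3.71 CPM in the shallowest library.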
